A study of Mus musculus with 11 samples.

Results

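Origin licensing, replicative helicase, polymerase, clamp and fork genes were followed across all libraries of the series as a list of 46 genes set by name, out of 55416 gene identifiers in the deposited table. All 46 were matched to an identifier by symbol, and all 46 passed the filter for testing, a mean of at least 10 normalized counts over the libraries. The data are polyadenylated RNA libraries of EC4, a mouse liver cancer line known as a derivative of a tumour with a switchable MYC transgene, kept in DMEM with 10 or 200 µM methionine for 24 h. The labels name the cells MYC high (MYC on) or MYC low (MYC off) and state that the growth medium held 200 µM. They do not name the agent that sets the MYC state, and all groups are the same line, so line and genotype effects are those of 1 cell line. The MYC high group at 200 µM had 2 libraries (replicates 2 and 3) and each other group had 3, which were MYC low cells at 200 µM, MYC high cells at 10 µM and MYC low cells at 10 µM. By its title the series is about methionine metabolism, NOP2 (an RNA methyltransferase) and liver tumours with active MYC.

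DNA replication starts at origins that are licensed before S phase. The origin recognition complex (ORC), CDC6 and CDT1 load the ring-shaped MCM2-7 complex onto DNA, and geminin, the product of Gmnn, blocks CDT1 so that no origin is licensed again within a cycle. CDC45 and the GINS complex then join MCM2-7 to form the moving helicase, DNA polymerase alpha with primase lays primers, polymerases delta and epsilon extend them, PCNA holds the polymerases on DNA, and RPA coats single strands. Transcription factors of the E2F family are known to drive many of these genes at the start of S phase, and the liver cells of a tumour, unlike those of a resting liver, pass through this phase repeatedly.

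Reads on genes numbered 10858936 to 13085689 per library, and mitochondrially encoded transcripts took 0.793% to 0.914% of the reads in MYC high and 1.52% to 1.74% in MYC low libraries. Replicates of a group correlated across genes with a Pearson r of at least 0.99276 on the log2 scale, and pairs of replicates differed by more than sampling noise (chi-square per gene of 1.40 to 2.67). The labels do not say that replicates were separate cultures, so the spread that p-values rest on may be a technical one. The mouse Myc transcript stood at 2164 and 2014 normalized counts in MYC high and 1106, 1133 and 1168 in MYC low libraries at 200 µM. At 10 µM it stood at 291, 366 and 350.3 in MYC high and 320.0, 344 and 342 in MYC low libraries (log2 difference −0.00, adjusted p = 0.949). It separated the labels at 200 µM and not at 10 µM, so by this transcript directions of the MYC state at 10 µM rest on the labels. Whether transgene RNA is counted in the mouse Myc gene was not tested. Nop2, the other gene set as a label check, was higher with MYC high in both media (log2 differences 1.36 and 0.68). At 10 µM it stood at 1817, 1719 and 1685 in MYC high and 1083, 1092 and 1084 in MYC low libraries. Of the 6 hepatocyte markers Alb was at 0 in all libraries and the summed level was at most 3.04 normalized counts, while of the 5 fetal liver and epithelial markers Krt8, Krt18 and Afp had a mean of at least 10 (Krt8 at 3336.5 to 14255), Epcam was at 0 in every library and Cdh1 was at most 1.01. Fibroblast and endothelial lists summed to at most 27.3 and 5.09. The macrophage list summed to 263 to 286 in MYC high and 482 to 533 in MYC low libraries at 200 µM, and to 873 to 906 and 929 to 973 at 10 µM, carried by Csf1r and Cd68. Ptprc and C1qa of that list were at 0 in every library, and Adgre1 was at most 0.97 normalized counts. The part of these markers in the results was not tested.

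Promoter windows of the list were examined because most of its genes moved together. RefSeq windows of build GRCm38.p6, from 250 bases before to 50 after a gene's start, were found by symbol for 37 of the 46 genes (45 windows). The motifs searched on both strands were the E box CACGTG, the core site of MYC with MAX, and 4 words of the E2F consensus (TTTCCCGC, TTTCGCGC, TTTGCCGC and TTTGGCGC), which can overlap one another on opposite strands. An E2F word was present in 15 of 45 windows (33.3%), against 2.26% of all 32851 promoter windows of the same length and 1 of 32 windows (3.12%) of a list of mitotic genes. An E box was present in 6 windows (13.3%), those of Fen1, Lig1, Orc4, Pola2, Rfc1 and Rpa1, against 7.15% of all windows. The windows counted as all belong to 27025 genes, and were neither limited to genes tested here nor matched for base content. The part of this in both contrasts was not tested. No single window of the list held both motifs, while Lig1 had each in a different window. The 250 bases before the start are shown, 5′ to 3′ on the strand of the gene, for genes picked because they held a motif. They are 4 genes with an E2F word and large differences by medium or MYC state (Cdc6, Gins3, Mcm5 and Mcm6). Orc3, which has such a word and moved the opposite way at 10 µM, and Rpa1, which has an E box, are also shown. Windows of Rpa2, Mcm10, Mcm2 and Wdhd1, which had large differences as well, held neither motif. No window was found for Mcm4 and Gins1. Whether motifs go with the size of the differences was not tested. Capitals mark the motifs, coordinates are those of GRCm38.p6, and a match is a description of the letters and not a measured binding site.
Cdc6 (chr11:98907901-98908150, plus strand): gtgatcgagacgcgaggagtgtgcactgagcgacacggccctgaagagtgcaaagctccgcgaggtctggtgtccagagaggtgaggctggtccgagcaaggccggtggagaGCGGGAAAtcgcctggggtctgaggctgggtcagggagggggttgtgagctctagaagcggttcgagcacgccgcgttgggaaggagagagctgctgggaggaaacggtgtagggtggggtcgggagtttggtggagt
Gins3 (chr8:95633309-95633558, plus strand): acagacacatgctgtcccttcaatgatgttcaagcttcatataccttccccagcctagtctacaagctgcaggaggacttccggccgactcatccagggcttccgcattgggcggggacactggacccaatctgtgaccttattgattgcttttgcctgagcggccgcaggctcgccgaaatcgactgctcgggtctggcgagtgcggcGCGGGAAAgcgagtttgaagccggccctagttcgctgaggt
Mcm5 (chr8:75109259-75109508, plus strand): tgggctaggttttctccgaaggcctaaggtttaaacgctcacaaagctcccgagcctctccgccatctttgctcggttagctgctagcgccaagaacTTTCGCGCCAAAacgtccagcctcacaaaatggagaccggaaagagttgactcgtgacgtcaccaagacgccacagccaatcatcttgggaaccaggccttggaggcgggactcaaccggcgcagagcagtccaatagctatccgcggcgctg
Mcm6 (chr1:128359706-128359955, minus strand): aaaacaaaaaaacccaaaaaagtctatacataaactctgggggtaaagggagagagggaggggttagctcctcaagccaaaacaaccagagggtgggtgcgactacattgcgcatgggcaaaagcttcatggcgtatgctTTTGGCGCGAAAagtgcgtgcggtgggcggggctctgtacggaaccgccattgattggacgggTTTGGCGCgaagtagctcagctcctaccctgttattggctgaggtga
Orc3 (chr4:34614943-34615192, minus strand): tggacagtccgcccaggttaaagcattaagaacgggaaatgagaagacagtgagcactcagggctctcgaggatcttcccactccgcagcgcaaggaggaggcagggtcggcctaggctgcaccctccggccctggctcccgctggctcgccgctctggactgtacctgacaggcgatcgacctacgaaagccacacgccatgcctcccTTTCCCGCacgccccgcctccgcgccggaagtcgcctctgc
Rpa1 (chr11:75348384-75348633, minus strand): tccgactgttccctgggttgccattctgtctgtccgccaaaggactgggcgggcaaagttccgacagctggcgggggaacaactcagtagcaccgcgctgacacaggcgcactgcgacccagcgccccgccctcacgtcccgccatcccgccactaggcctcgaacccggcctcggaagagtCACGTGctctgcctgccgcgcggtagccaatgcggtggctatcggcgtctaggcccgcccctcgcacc

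In Mcm5 and in Mcm6 a pair of E2F words on opposite strands overlapped, at positions 98 and 102 of the Mcm5 window and 141 and 145 of the Mcm6 window, counted from 1 at its 5′ end. Mcm6 held a further word at position 204. Mcm3, Mcm7, Orc1, Cdt1, Pola1, Pold1, Pold3, Pole2, Rfc3 and Lig1 held a word in their windows as well.

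The replication genes were highest in MYC high cells at 200 µM and lowest in MYC low cells at 10 µM. Of 46 genes, 33 (71.7%) had their highest group mean in MYC high cells at 200 µM, where 33.9% of all genes tested did, and 35 (76.1%) had their lowest in MYC low cells at 10 µM, where 25.2% of all genes did. The median over the list of each gene's log2 deviation from its own mean was 0.59 and 0.64 in the MYC high libraries at 200 µM, 0.05 to 0.08 in those at 10 µM, and −0.14 to −0.10 with MYC low at 200 µM. It was lowest, −0.43 to −0.39, with MYC low at 10 µM. The libraries of the 4 groups did not overlap on this median. In bulk RNA, a smaller share of cells that express a gene and less RNA per cell cannot be told apart, and this holds for every lower value given here. The share of mitochondrial reads moved with the MYC label, and its part in the result was not tested.

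**Figure D1:**
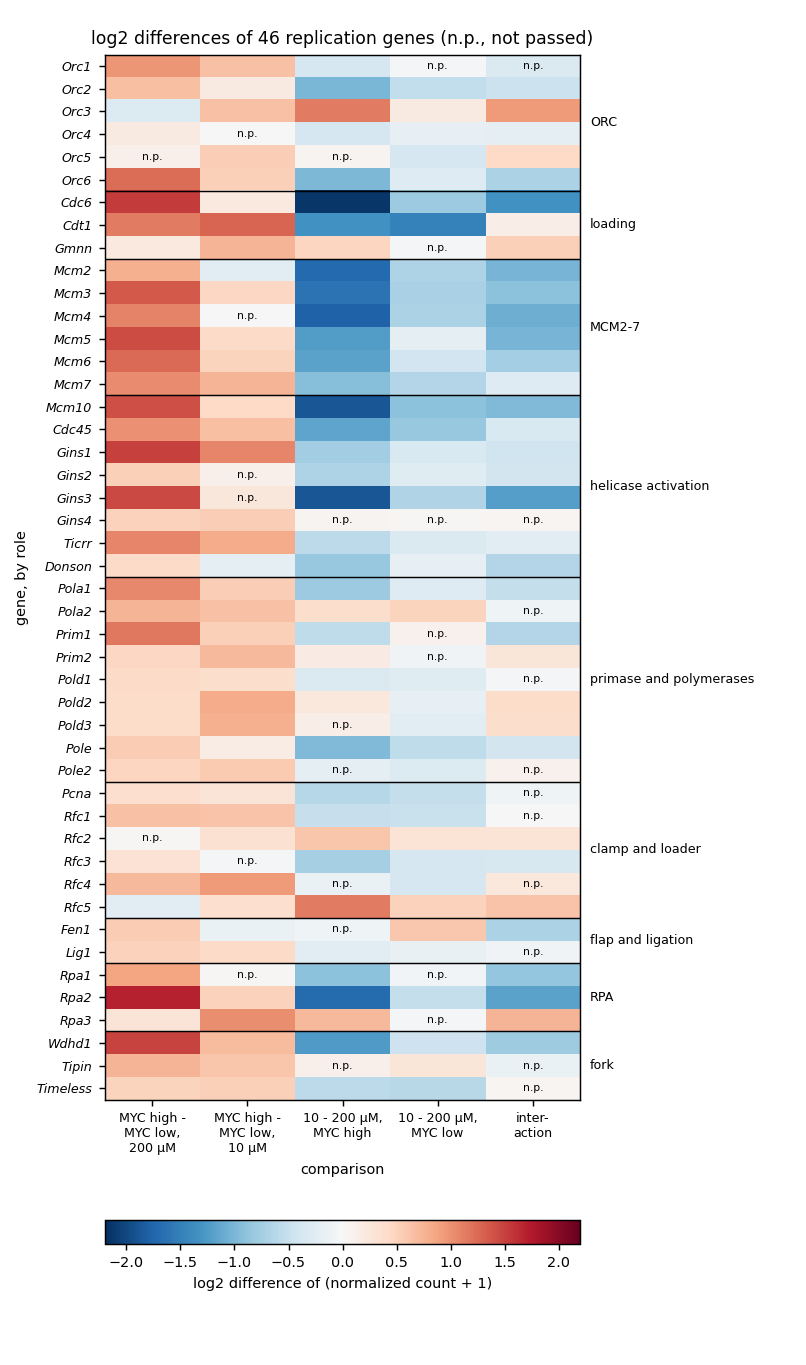
Log2 differences of the 46 genes (rows, grouped by role) in the 5 comparisons (columns); red is higher in the group named before the minus sign, blue is lower, and n.p. marks values that did not pass the adjusted p threshold of 0.05. The column of MYC high minus MYC low cells at 200 µM is red but for Orc3 and Rfc5 and the 2 genes that did not pass, and the column of 10 minus 200 µM in MYC high cells is mostly blue, darkest at Cdc6, Mcm10 and Gins3.

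At 200 µM methionine, MYC high cells carried more RNA of nearly the whole machinery than MYC low cells. With limma, 42 genes were higher, 2 were lower and 2 did not pass, while of all genes tested 74.4% passed, 36.8% higher and 37.6% lower. The median log2 difference was 0.69 over the list and −0.00 over all genes. At least 2-fold higher were 16 genes of the list and 6.79% of all genes, and none of the list was at least 2-fold lower, where 12.1% of all genes were. Rpa2, the middle RPA subunit, had the largest difference of the list, 1.68, followed by Cdc6 (1.53) and the GINS subunit Gins1 (2.83-fold). Orc3 (−0.31) and the clamp loader subunit Rfc5 (−0.26) were lower. The call of Orc3 was lost without replicate 2 of MYC high cells at 200 µM (log2 difference −0.23, adjusted p = 0.0559), which left 1 gene lower.

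At 10 µM methionine the list was still higher in cells labelled MYC high, with 37 genes higher, 3 lower and 6 not passed, against 71.5% of all genes passing, 35.7% higher and 35.8% lower. The median log2 difference was 0.52, and 3 genes, Cdt1 (1.29), Gins1 (1.07) and Rpa3 (1.02), were at least 2-fold higher, where 6.41% of all genes were. None of the list was at least 2-fold lower, where 7.92% of all genes were. Mcm2 (−0.25), Donson (−0.22) and Fen1 (−0.14) were lower. Orc4, Mcm4, Gins2, Gins3, Rfc3 and Rpa1 did not pass, although Gins2 did without replicate 1 of MYC high cells at 10 µM (adjusted p = 0.0479). The call of Fen1 was lost without either of 2 libraries (adjusted p = 0.192 and 0.127). The comparisons at 200 and 10 µM share no library, and 33 genes were higher in both, none was lower in both and 5 moved in opposite directions, where 23.2%, 23.7% and 9.98% of all genes did so.

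With MYC high, 31 genes were lower at 10 than at 200 µM methionine, 8 were higher and 7 did not pass, against 75.8% of all genes passing, 37.9% lower and 37.9% higher. The median log2 difference was −0.60. At least 2-fold lower were 13 genes of the list and 9.18% of all genes, among them 5 of the 6 MCM2-7 subunits. At least 2-fold higher were Rfc5 (1.14) and Orc3 (1.14), where 13% of all genes were.

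In MYC low cells the medium moved fewer genes by large amounts. With limma, 33 genes were lower at 10 µM, 6 were higher and 7 did not pass, against 59.4% of all genes passing, 29.9% lower and 29.4% higher, with a median of −0.29. Cdt1 was at least 2-fold lower (−1.48), as 2.17% of all genes were. None of the list was at least 2-fold higher, where 3.39% of all genes were. The genes that rose were Fen1 (0.60), Rfc5 (0.51), Pola2 (0.49), Rfc2 (0.31), Tipin (0.26) and Orc3 (0.20). The 2 media comparisons share no library. Of the list, 28 genes (60.9%) fell in both MYC states and 4 (8.7%) rose in both, where 21.6% and 21.6% of all genes did. Pold2 moved in opposite directions, as 6.75% of all genes did.

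The response to the medium differed between the MYC states for 35 genes by the interaction (the MYC low response subtracted from the MYC high one), where 60.4% of all genes did. It was negative, a larger fall or smaller rise in MYC high cells, for 25 genes and positive for 10, against 29.4% and 31% of all genes, and the median was −0.31. A value of at least 2-fold was negative for 6 genes of the list and 4.75% of all genes, and positive for none of the list and 8.09% of all genes. Cdc6 (−1.33), Gins3 (−1.21) and Rpa2 (−1.17) had the most negative values and Orc3 (0.94), Rpa3 (0.75) and Rfc5 (0.64) the most positive.

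**Figure D2:**
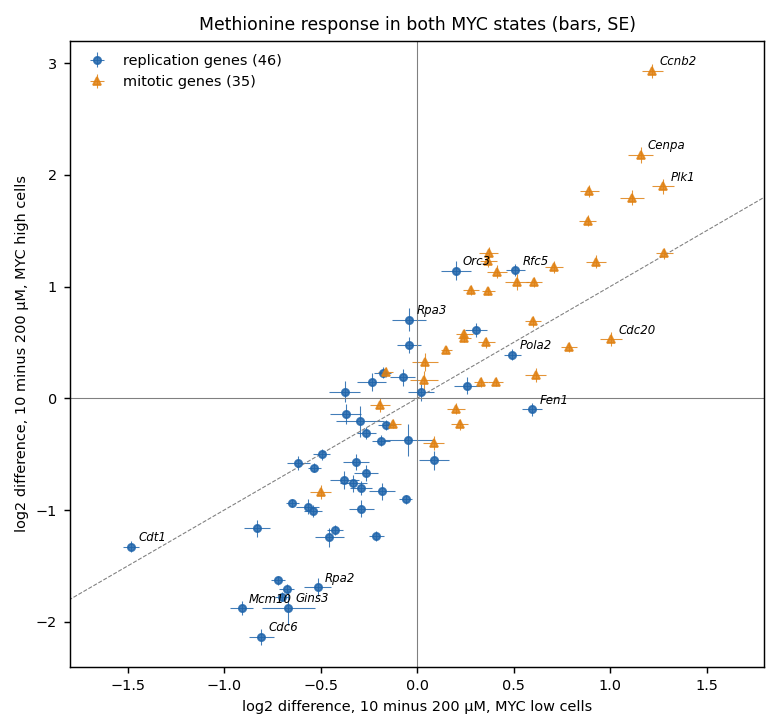
Log2 difference between 10 and 200 µM methionine in MYC low cells (horizontal axis) and in MYC high cells (vertical axis) for the 46 replication genes (circles) and 35 mitotic genes (triangles), with bars for SE; the dashed line marks equal responses. Most circles lie in the lower left and below the dashed line, with Cdc6 lowest, and 26 of the 35 triangles rose in both states.

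In what follows values per library are normalized counts and differences are on the log2 scale. Of the list, Cdc6 fell furthest with the lower methionine in MYC high cells. Cdc6, the ATPase that recruits MCM2-7 to origins with CDT1, stood at 1298 and 1280.5 normalized counts in MYC high and 442, 455 and 437 in MYC low libraries at 200 µM. At 10 µM it stood at 273, 296 and 312 in MYC high and 257, 254 and 250.4 in MYC low libraries. The MYC high libraries at 200 µM were therefore far above all others, and those of the other groups lay in separate ranges. The log2 difference between MYC states was 1.53 (SE 0.072, adjusted p = 1.08e-20) at 200 µM and 0.21 (SE 0.064, adjusted p = 0.00458) at 10 µM, and the difference between 10 and 200 µM was −2.13 (SE 0.072, adjusted p = 3.20e-25) with MYC high and −0.81 (SE 0.064, adjusted p = 1.68e-13) with MYC low.

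Cdt1, the loading factor that geminin blocks, stood at 2919 and 2921 in MYC high and 1312, 1313 and 1362 in MYC low libraries at 200 µM, and at 1135, 1158 and 1196 (MYC high) and 492, 466 and 468 (MYC low) at 10 µM. Both factors of the design separated its libraries, with a MYC difference of 1.14 and 1.29 (SE 0.048 and 0.043) at 200 and 10 µM and a difference between media of −1.33 and −1.48 with MYC high and with MYC low. The interaction was small, 0.15 (SE 0.064, adjusted p = 0.0375), and lost its call when any of 6 single libraries was left out, with DESeq2 and without the filter on low values (adjusted p from 0.0555 to 0.0883). Gmnn, the gene of geminin, moved the other way from Cdt1 in MYC high cells. Its libraries held 458 and 502 normalized counts at 200 µM and 637, 718 and 650.0 at 10 µM, a rise of 0.48 (SE 0.070, adjusted p = 1.46e-07). In MYC low cells the values were 398, 419 and 417 at 200 µM and 408, 383 and 407 at 10 µM, a log2 difference of −0.04 (95% interval −0.17 to 0.08) that did not pass. Its difference between MYC states at 200 µM (0.22) was lost without replicate 3 of MYC high cells (0.16, adjusted p = 0.109).

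Subunits of ORC did not move as one. Orc1, the ATPase subunit that varies with the cell cycle, and Orc6 were higher in MYC high cells at 200 µM by 0.98 (SE 0.144, adjusted p = 1.60e-07) and 1.22 (SE 0.074, adjusted p = 2.15e-17), and Orc2 by 0.67. Orc6 held 805 and 783 normalized counts in those libraries against 328, 352 and 341 in MYC low ones, and fell to 419.7, 379 and 403 in MYC high and 287, 268 and 280.4 in MYC low libraries at 10 µM. Orc3 went the other way. It stood at 226 and 252 in MYC high cells at 200 µM, the lowest libraries of all groups, at 279.8, 334 and 278 in MYC low cells at 200 µM, at 509, 512 and 568 in MYC high cells at 10 µM, the highest, and at 362, 319.7 and 340.4 in MYC low cells at 10 µM. Its rise with the lower methionine was 1.14 (SE 0.087, adjusted p = 1.61e-14) in MYC high cells. With MYC low, whose libraries overlapped between media, it was 0.20 (SE 0.078, adjusted p = 0.0264), and this call was lost without any 1 of 4 libraries, with DESeq2 and without the filter on low values (adjusted p from 0.0558 to 0.130). Its lower value in MYC high cells at 200 µM was lost without replicate 2 of that group (−0.23, adjusted p = 0.0559). Orc4 and Orc5 differed by at most 0.54 between groups, with Orc5 not passed at 200 µM between MYC states. The fall of Orc1 in MYC high cells (−0.37) was lost without either library at 200 µM or without replicate 2 at 10 µM (adjusted p from 0.0548 to 0.0879). The Orc4 interaction (−0.19) was lost without any 1 of 3 libraries (adjusted p from 0.0553 to 0.0966). Exons of Orc2 and Orc1 overlap opposite-strand genes over 24.0% and 11.9% of their bases, and those values are uncertain.

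All 6 genes of MCM2-7, the core of the replicative helicase, were higher in MYC high cells at 200 µM, where 36.8% of all genes were. Their differences ran from 0.78 (Mcm2) to 1.44 (Mcm5). All 6 fell at 10 µM in both MYC states, as 21.6% of all genes did. Mcm4 had 5181 and 5508 normalized counts in MYC high and 2434, 2547 and 2539 in MYC low libraries at 200 µM. At 10 µM it had 1561, 1597 and 1528 (MYC high) and 1561, 1508 and 1567 (MYC low), and these libraries overlapped. Its MYC difference was 1.09 (SE 0.041, adjusted p = 8.46e-24) at 200 µM and 0.02 (95% interval −0.06 to 0.09, adjusted p = 0.717) at 10 µM. Mcm2 changed sides. It stood at 5382 and 5602 against 3207, 3133 and 3278 at 200 µM, and at 1637, 1757 and 1669 in MYC high against 2118, 1988 and 1916 in MYC low libraries at 10 µM. Its MYC difference was 0.78 (SE 0.042, adjusted p = 7.49e-19) and then −0.25 (SE 0.038, adjusted p = 2.66e-07). Mcm5 stood at 3720.1 and 3636 (MYC high) and 1329.9, 1389 and 1344 (MYC low) at 200 µM and at 1590.2, 1582 and 1531 (MYC high) and 1190.5, 1151 and 1169 (MYC low) at 10 µM. No libraries of its groups overlapped, and the fall in MYC low cells was the smallest of the 6 (−0.21, SE 0.038). Mcm3, Mcm6 and Mcm7 were higher at 10 µM in MYC high cells by 0.45, 0.50 and 0.75. The interaction was negative for all 6, from −1.08 (Mcm4) to −0.29 (Mcm7), as it was for 29.4% of all genes.

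**Figure D3:**
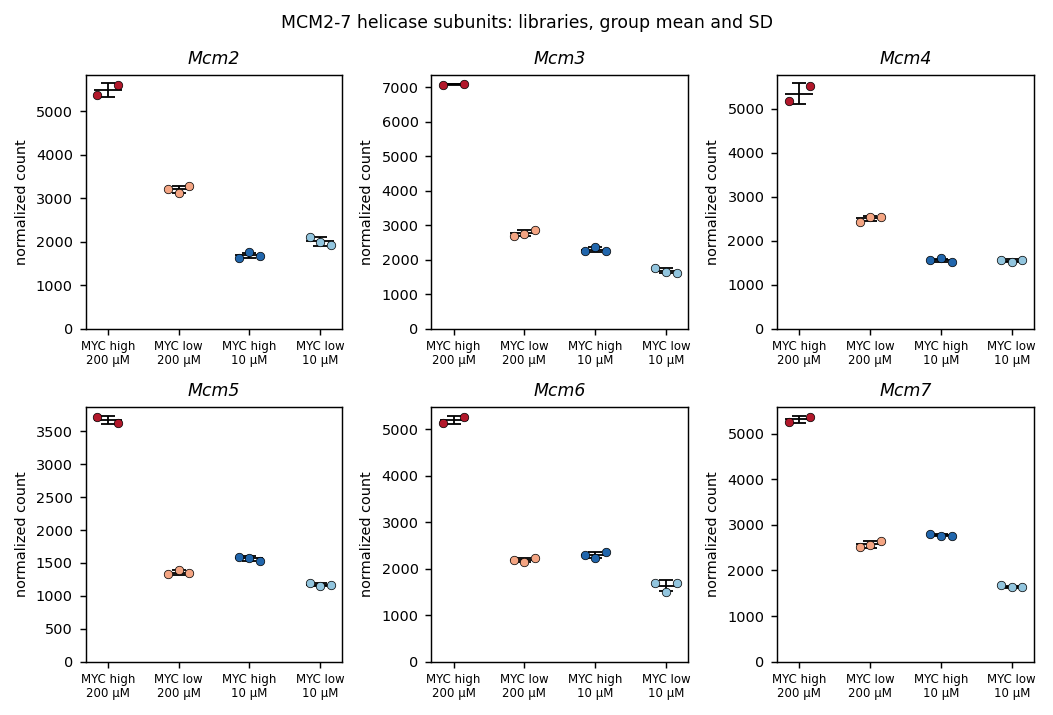
Normalized counts of the 6 MCM2-7 genes (1 panel each, vertical axis from 0) in each library (points) with the group mean and SD (bars), by MYC label and methionine. In every panel both MYC high libraries at 200 µM lie above all others, and in the Mcm2 panel the MYC low libraries at 10 µM lie above the MYC high ones.

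Levels of different genes are compared only per length, as normalized counts per kb of merged exons of protein-coding transcripts. On this scale Mcm3 led in MYC high cells at 200 µM with 2337 ± 3.82 (SD, n = 2), followed by Mcm7 with 1796 ± 25.1, and Mcm5 was lowest with 1064 ± 17.3. In MYC low cells at 200 µM the order was Mcm2 (951 ± 21.4), Mcm3 (912 ± 29.7) and Mcm7 (869.8 ± 25.0) down to Mcm5 (392 ± 8.86, SD, n = 3 each), and neighbours among the first 3 overlapped. At 10 µM Mcm7 was highest in MYC high cells (937 ± 9.65), ahead of Mcm3 (757 ± 21.4). In MYC low cells at 10 µM Mcm2 (595 ± 30.3), Mcm7 (555 ± 8.21) and Mcm3 (553 ± 23.8) lay close together, with Mcm3 overlapping both others. Mcm2 moved from the third place to the fourth in MYC high cells with the lower methionine, 1629 ± 45.9 against 501 ± 18.4, where its libraries overlapped those of Mcm6 (524 ± 16.6). Of the Mcm7 exons 10.8% overlap those of Ap4m1 on the other strand, and no source used here gives the strand setting of the counting, which makes that level uncertain.

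**Figure D4:**
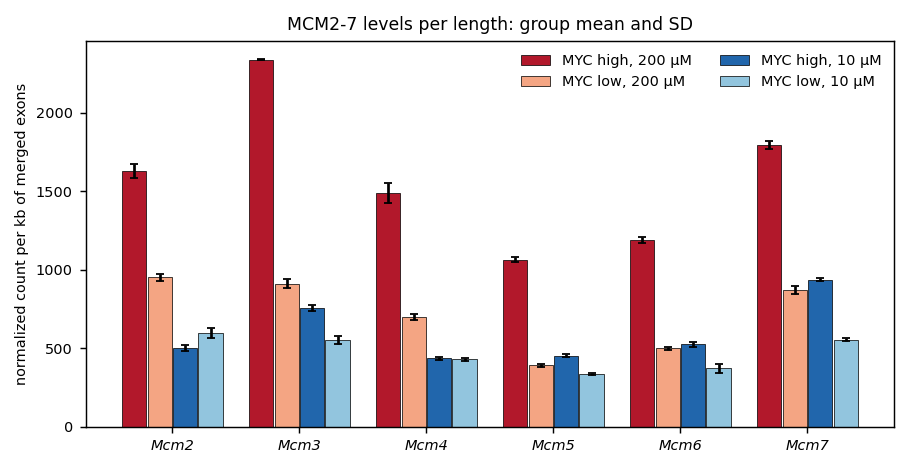
Normalized counts per kb of merged exons for the 6 MCM2-7 genes; bars from 0 show the group mean and error bars the SD (n = 2 for MYC high cells at 200 µM, n = 3 otherwise). Mcm3 is the tallest bar in MYC high cells at 200 µM (2337), and Mcm7 is the tallest in MYC high cells at 10 µM (937).

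Helicase activation genes were higher in MYC high cells at 200 µM in 8 of 8, where 36.8% of all genes were. In each MYC state 7 of 8 fell at 10 µM, where 37.9% (MYC high) and 29.9% (MYC low) of all genes did. Mcm10, which helps the assembled helicase to start, stood at 1993 and 1913 in MYC high and 700.1, 716 and 785 in MYC low libraries at 200 µM, and at 514, 513 and 567 (MYC high) and 417, 369 and 384 (MYC low) at 10 µM. Its log2 differences between media were −1.88 (SE 0.064, adjusted p = 4.68e-25) with MYC high and −0.91 (SE 0.057, adjusted p = 2.17e-16) with MYC low. Among the 4 GINS subunits Gins3 had the largest fall in both MYC states. It stood at 271 and 286 in MYC high cells at 200 µM and at 82.5, 70.9 and 72.9 at 10 µM, a log2 difference of −1.87 (SE 0.152, adjusted p = 9.78e-14), and with MYC low at 103, 118 and 84.2 at 200 µM and 66.9, 65.5 and 57.3 at 10 µM. Gins1 kept a large MYC difference in both media. Its libraries held 834 and 918 against 308, 336 and 283 normalized counts at 200 µM, and 538, 510.4 and 499 against 249, 229 and 257 at 10 µM. Gins4 did not pass for either medium comparison (0.05, 95% interval −0.10 to 0.21, and 0.02, −0.11 to 0.16). Cdc45 stood at 987 and 1031 (MYC high) and 486, 552 and 480.0 (MYC low) at 200 µM and at 447, 453 and 449.6 (MYC high) and 277, 265 and 312 (MYC low) at 10 µM, so that all 4 groups were apart.

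Ticrr, which brings CDC45 to origins under CDK control, was higher in MYC high cells in both media (1.07 and 0.82). Its interaction (−0.25) was lost without any 1 of 3 libraries and with DESeq2 (adjusted p from 0.0609 to 0.0901). Donson, also needed for helicase assembly, changed sides like Mcm2, with 558 and 581 against 403, 450.3 and 419 at 200 µM and 307, 333 and 319 in MYC high against 398, 363 and 359 in MYC low libraries at 10 µM (log2 differences 0.43 and −0.22, adjusted p = 4.42e-06 and 0.00355). Its fall in MYC low cells (−0.18) was lost without any 1 of 3 libraries and with DESeq2 (adjusted p from 0.0561 to 0.116). Of the Gins2 exons 70.7% overlap Gse1 on the other strand, and 12.1% of the Donson exons overlap Atp5o on the same strand, so the values of both are uncertain.

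The polymerases and primase were higher in MYC high cells in 9 of 9 genes in both media. Of all genes 36.8% were at 200 µM and 35.7% at 10 µM. Their answer to methionine was mixed. With MYC high 4 of 9 were lower and 3 higher at 10 µM, near the shares of all genes (37.9% and 37.9%). With MYC low 6 were lower and 1 higher, where 29.9% and 29.4% of all genes were. The catalytic subunits Pola1, of the priming polymerase, and Pole, of the leading strand polymerase, fell in MYC high cells by a log2 difference of −0.80 (SE 0.064, adjusted p = 5.71e-14) and −0.97 (SE 0.068, adjusted p = 1.45e-15). Pola1 stood at 1225 and 1318 (MYC high) and 575, 599 and 655 (MYC low) at 200 µM and at 775, 689 and 719 (MYC high) and 527, 487 and 481 (MYC low) at 10 µM. Its partner Pola2 rose in both states. It stood at 1138 and 1121 in MYC high and 666, 664 and 695 in MYC low libraries at 200 µM, and at 1498, 1499.8 and 1448 (MYC high) and 936, 934 and 981 (MYC low) at 10 µM, a rise of 0.39 (SE 0.049, adjusted p = 5.69e-09) and 0.49 (SE 0.044, adjusted p = 3.29e-12). The primase subunits also differed. Prim1, which makes the RNA primer, fell in MYC high cells (−0.56), and Prim2, its partner, rose (0.19), a call lost without replicate 3 of either MYC high group (adjusted p = 0.103 and 0.0642). The Prim2 interaction (0.26) was lost without either of 2 libraries and with DESeq2 (adjusted p from 0.0508 to 0.0671).

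Among the subunits of polymerase delta, which extends the lagging strand, Pold2 rose in MYC high cells (0.23) and Pold1, the catalytic subunit, fell (−0.31). Pold3 did not pass (0.15, 95% interval −0.02 to 0.32). In MYC low cells all 3 fell, Pold1 at −0.26, Pold2 at −0.18 and Pold3 at −0.23, as 29.9% of all genes did. Pole at 10 µM was higher in MYC high cells by 0.17, with 618, 500.3 and 529.5 against 483, 469.6 and 512 normalized counts, overlapping libraries. This call was lost without replicate 1 of MYC high or replicate 2 of MYC low cells at 10 µM (adjusted p = 0.26 and 0.0735). Pole2, the second subunit of polymerase epsilon, stood at 151 and 174 (MYC high) and 102, 107 and 141 (MYC low) at 200 µM. Its MYC difference there (0.48) was lost without replicate 3 of MYC high cells (adjusted p = 0.0564), and its fall in MYC low cells (−0.30) without any 1 of 4 libraries, with DESeq2 and without the filter on low values (adjusted p from 0.0579 to 0.337). A gene on the same strand, Gm49384, shares 14.4% of its exon bases.

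Of the 6 genes of the sliding clamp and its loader, 3 fell and 2 rose at 10 µM with MYC high, and 4 fell and 2 rose with MYC low. Of all genes 37.9% fell and 37.9% rose with MYC high, and 29.9% fell and 29.4% rose with MYC low. The shares that rose were thus near those of all genes. Pcna, the clamp, stood at 4794 and 5055 in MYC high and 3771, 3735 and 3916 in MYC low libraries at 200 µM, and at 3136, 3298 and 3179 (MYC high) and 2627, 2636 and 2633 (MYC low) at 10 µM. Its MYC differences were 0.37 (SE 0.037, adjusted p = 1.94e-11) and 0.28 (SE 0.033, adjusted p = 9.83e-10), and its differences between media −0.62 and −0.53 with MYC high and with MYC low. The interaction did not pass (−0.09, 95% interval −0.19 to 0.01), but passed without replicate 2 of MYC high cells at 10 µM (adjusted p = 0.0478). Rfc5 moved against the list. It stood at 619 and 638 in MYC high and 712, 764 and 780.0 in MYC low libraries at 200 µM, and rose to 1386, 1441 and 1345 (MYC high) and 1023, 1093 and 1095 (MYC low) at 10 µM. The rises were 1.14 (SE 0.053, adjusted p = 7.33e-21) and 0.51 (SE 0.048, adjusted p = 1.13e-11). Rfc2 rose as well (0.61 and 0.31), while Rfc1, the large subunit, and Rfc3 fell in both states, Rfc1 at −0.50 and −0.49 and Rfc3 at −0.73 and −0.38. Rfc4 fell in MYC low cells (−0.37) and did not pass in MYC high cells (−0.14, 95% interval −0.32 to 0.04). Its interaction (0.23) passed without replicate 2 of MYC low cells at 200 µM (0.31, adjusted p = 0.0255). Exons of Rfc2, Rfc4 and Rfc5 overlap opposite-strand genes over 19.1%, 14.8% and 15.4% of their bases, and the annotation holds 2 processed pseudogenes of Pcna with which reads can be shared.

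The RPA subunits, which bind single-stranded DNA as a trimer, split in their answer to methionine. Rpa2 stood at 1168 and 1093 in MYC high and 322, 369 and 363 in MYC low libraries at 200 µM, and at 345, 349 and 354 (MYC high) and 263, 243 and 230.2 (MYC low) at 10 µM. The first group was 3.21-fold above the MYC low libraries (1.68, SE 0.078, adjusted p = 6.12e-21) and fell by a log2 difference of −1.69 (SE 0.078) at 10 µM, to the range of MYC low cells at 200 µM. Rpa1, the largest subunit, stood at 3634 and 3694 in MYC high cells at 200 µM, and the other 3 groups shared a range, with 1979, 1990.3 and 2059 for MYC low at 200 µM, then 1942, 1926 and 2008 for MYC high and 1999, 1877 and 1909 for MYC low at 10 µM. Rpa3, the smallest, rose instead in MYC high cells, from 234 and 229 at 200 µM to 376, 416 and 346 at 10 µM (0.71, SE 0.099, adjusted p = 5.62e-08). With MYC low it stood at 182, 199 and 193 at 200 µM and 185, 171 and 202 at 10 µM, libraries that overlapped (−0.04, 95% interval −0.22 to 0.14). Its MYC difference at 200 µM (0.28) was lost without replicate 2 of MYC high cells (0.26, adjusted p = 0.0611).

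**Figure D5:**
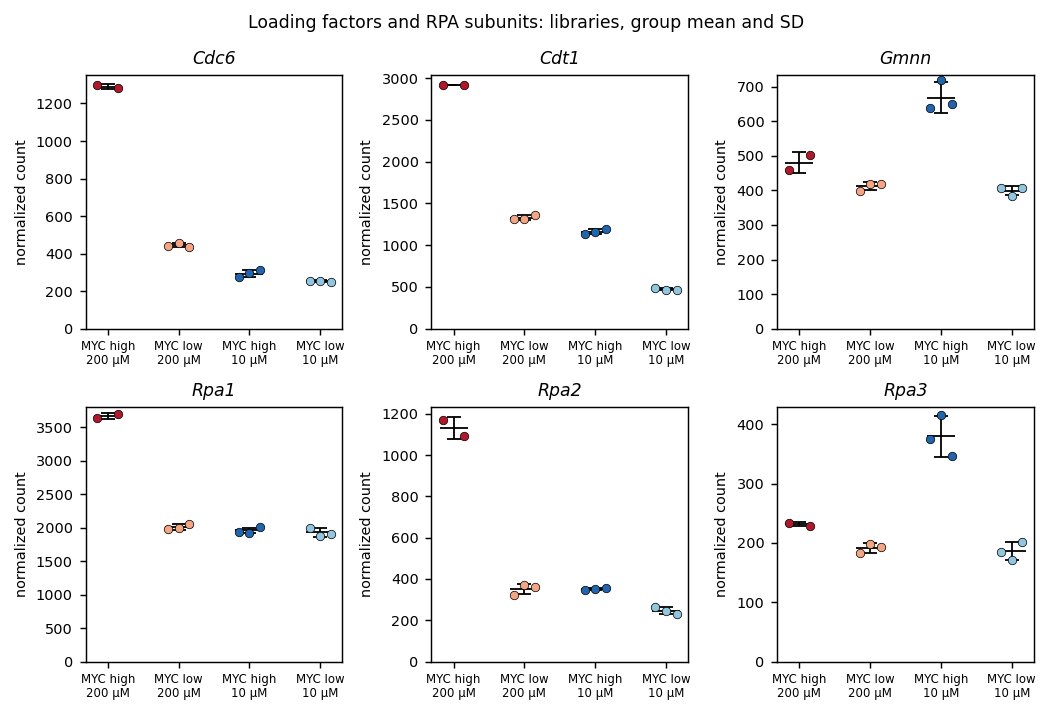
Normalized counts of the loading factors Cdc6 and Cdt1, the inhibitor gene Gmnn and the RPA subunit genes (1 panel each, vertical axis from 0) in each library (points), with group mean and SD (bars). MYC high cells at 200 µM are highest for Cdc6, Cdt1, Rpa1 and Rpa2, whereas MYC high cells at 10 µM are highest for Gmnn and Rpa3.

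Of the lagging strand enzymes, Fen1, which removes the flaps of Okazaki fragments, stood at 1075 and 1189 in MYC high and 774, 764 and 766 in MYC low libraries at 200 µM. At 10 µM it stood at 1096, 1109 and 969 (MYC high) and 1229, 1122 and 1138 (MYC low), with all MYC low libraries above all MYC high ones. The rise in MYC low cells was 0.60 (SE 0.051, adjusted p = 1.11e-12), the largest of the list there, while MYC high cells did not pass (−0.10, 95% interval −0.21 to 0.02) but passed without replicate 2 of either medium (−0.17 and −0.13, adjusted p = 0.0286 and 0.0459). The interaction was −0.70 (SE 0.077, adjusted p = 6.81e-10). Its lower value in MYC high cells at 10 µM (−0.14) was lost without either of 2 libraries and without the filter on low values (adjusted p from 0.0508 to 0.192). Exons of an antisense gene, Gm10143, cover 78.8% of the Fen1 exons, so reads of both may be mixed. Lig1, the ligase that seals the fragments, was higher in MYC high cells by 0.50 and 0.42 and fell by a log2 difference of −0.24 and −0.16 at 10 µM.

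Of the fork proteins, Wdhd1, which ties polymerase alpha to the helicase, stood at 748 and 798 in MYC high and 292, 270.2 and 264 in MYC low libraries at 200 µM, and at 332, 318 and 328 (MYC high) and 208, 214 and 181 (MYC low) at 10 µM. Its log2 differences between media were −1.24 (SE 0.085, adjusted p = 7.27e-16) and −0.45 (SE 0.076, adjusted p = 2.89e-06). Timeless and Tipin encode 2 partners that hold the fork together and had different answers to methionine. Timeless fell by a log2 difference of −0.58 with MYC high and −0.61 with MYC low. Tipin rose by 0.26 in MYC low cells and did not pass in MYC high cells (0.11, 95% interval −0.04 to 0.27), with an interaction of −0.14 that passed only without replicate 2 of MYC low cells at 10 µM (−0.23, adjusted p = 0.0475).

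Further replisome and origin genes outside the list followed the same directions in part. Of 25 such genes 24 were tested. At 200 µM 18 were higher and 2 lower in MYC high cells, with the smallest adjusted p for Top1 (0.78), the topoisomerase that relieves twist ahead of forks, Mcmbp (0.86), a partner of MCM subunits, Rif1 (0.75) and Dtl (0.86), and at 10 µM 16 were higher and 1 lower. Of all genes 36.8% were higher and 37.6% lower at 200 µM, and 35.7% and 35.8% at 10 µM. With the lower methionine 14 fell and 4 rose in MYC high cells, where 37.9% of all genes fell and 37.9% rose. In MYC low cells 14 fell and 5 rose, where 29.9% and 29.4% of all genes did. Dtl (−1.33 and −0.98), which targets CDT1 for destruction, and Rif1 (−0.85 and −0.72), which acts on origin timing, fell in both. Against these, Pold4, the smallest subunit of polymerase delta, was lower in MYC high cells at 200 µM (−0.81) and rose there at 10 µM (0.68), as did Chtf18 of an alternative clamp loader (−0.73 and 1.02). Of 10 genes of chromatin assembly at forks 9 were higher and 1, Chaf1b (−0.40), was lower in MYC high cells at 200 µM (36.8% and 37.6% of all genes). At 10 µM 6 of them fell and 2 rose in MYC high cells (37.9% and 37.9% of all genes), with Nasp at −0.84, and Ssrp1 (0.59) and Chaf1b (0.52) rising.

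Genes of mitosis, which follows replication in the cycle, mostly rose with the lower methionine. Of 35 listed mitotic genes 28 rose and 4 fell at 10 µM in each MYC state, where 37.9% of all genes rose and 37.9% fell with MYC high and 29.4% rose and 29.9% fell with MYC low. The list had medians of 0.57 and 0.37 against −0.60 and −0.29 of the replication list. In both states together 26 mitotic and 4 replication genes rose and 2 mitotic and 28 replication genes fell, where 21.6% of all genes rose and 21.6% fell in both. Ccnb2, a cyclin of mitotic entry, rose by 2.93 (SE 0.062, adjusted p = 1.03e-31) with MYC high and 1.22 (SE 0.055, adjusted p = 1.29e-20) with MYC low. The centromere gene Cenpa rose by 2.18 and 1.16 and the mitotic kinase gene Plk1 by 1.90 and 1.28, whereas Ndc80 of the kinetochore fell by a log2 difference of −0.84 and −0.50. Between MYC states the mitotic list had 18 genes higher and 9 lower at 200 µM (median 0.25) and 27 higher and 2 lower at 10 µM (median 0.44), against the shares of all genes given above for these comparisons. The difference between the 2 lists was not tested, since genes of a list are not replicates.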

How the data were processed

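Polyadenylated RNA of 11 EC4 libraries was analysed. The signal values deposited by the authors are described in the labels as normalized counts, 1 per gene and library. Per the submitters' processing notes, FastQC, fastp, STAR, SAMtools, HTSeq and DESeq2 were used with build GRCm39. Tool versions, the annotation release and strandedness: not given in the sources used here. Within 0.001, 100% of values were whole multiples of 1 step per library, so whole reads were recovered. The step equalled the inverse of a median-of-ratios size factor (0.875 to 1.13). Such scaling sets the typical gene to no change, so differences are relative to it. Symbols came from a gene name table, and exon lengths and overlaps from GENCODE M21 (GRCm38). Log2 of the value plus 1 was tested with limma 3.58.1 (R 4.3.3), fitting the 4 group means with a spread shared by all groups, a trend on expression and Benjamini-Hochberg adjustment over the 12909 genes with a mean of at least 10, at 0.05. SE is the moderated standard error of limma, the source of each adjusted p for which no other tool is named. Fold changes on this scale are understated for low genes. The procedure was tested on simulated data. edgeR 4.0.16 and DESeq2 1.42.0 on recovered reads were alternatives, beside other pseudocounts, filters, TMM scaling, a replicate block and leaving out each library. Genes with values in every library were those with the 3 largest differences each way in a comparison, and some members against their role group. Rfc2, Prim2, Pold2 and Tipin, which also moved against others of their role group, are given by differences only. The rest of the list and the other lists are given by counts and examples. Values per library of further members (such as Orc6, Mcm4, Mcm5, Pola1, Pcna, Rpa1 and Wdhd1) and of E2f2 and Rbl2 were added after values were seen. Those of Mcmdc2 are outside this choice of genes as well. Members and lists were chosen with earlier results of these data known. A list of nucleotide supply genes is not reported here.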

Additional observations from a re-analysis of the deposited data

Results flagged for a closer look

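The methionine response differed between MYC high and MYC low cells in limma's interaction for 35 of 46 replication genes (60.4% of all genes tested did), and values are log2 interactions, with the MYC low response subtracted from the MYC high one. Among loading and ORC genes it was negative for Cdc6 (−1.33), Orc6 (−0.70), Orc2 (−0.47) and Orc4 (−0.19). It was negative for the helicase genes Mcm4 (−1.08), Mcm2 (−1.03), Mcm5 (−1.02), Mcm3 (−0.91), Mcm6 (−0.75) and Mcm7 (−0.29), and for the activation genes Gins3 (−1.21), Mcm10 (−0.97), Donson (−0.65), Gins1 (−0.43), Gins2 (−0.41), Cdc45 (−0.34) and Ticrr (−0.25). Polymerase and primase genes with negative values were Prim1 (−0.64), Pola1 (−0.52) and Pole (−0.40). Negative values also belonged to Rpa2 (−1.17), Rpa1 (−0.84), Wdhd1 (−0.79), Fen1 (−0.70) and Rfc3 (−0.35). Positive interactions were those of Cdt1 (0.15), Orc5 (0.44), Gmnn (0.52) and Orc3 (0.94) among loading and ORC genes, of Prim2 (0.26), Pold3 (0.38) and Pold2 (0.41) among polymerase genes, and of Rfc2 (0.31), Rfc5 (0.64) and Rpa3 (0.75) among clamp loader and RPA genes. Single calls that were lost without 1 library, Cdt1, Ticrr, Orc4 and Prim2, had an adjusted p of 0.0508 to 0.0966 there.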

How the results depend on the processing

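The 19 alternatives left no call of a replication gene reversed, and 4316 of 4370 gene values kept their side of the threshold, while 48 lost and 6 gained a call, 38 and 6 of these on leaving out 1 library. Pseudocounts of 0.5 and 5, a filter of 50, TMM scaling, edgeR and the replicate block changed no call of the list. The unfiltered fit lost 4 calls and DESeq2 6. Leaving out 1 library gave 40 to 42 genes higher and 1 to 2 lower between MYC states at 200 µM, and 36 to 37 higher and 2 to 3 lower at 10 µM. In MYC high cells 30 to 31 genes fell and 7 to 8 rose with the lower methionine, in MYC low cells 31 to 33 fell and 5 to 6 rose, and 23 to 26 negative and 8 to 11 positive interactions were called. The count of 1 gene lower came without replicate 2 of MYC high cells at 200 µM. With the replicate block 44, 40, 39, 39 and 35 genes of the list passed in the 5 comparisons, as without it. Libraries with the same number did not deviate together (r of −0.049 to 0.026 over 15 pairs), so no effect shared by number was seen. With 2 or 3 libraries per group this cannot exclude that such libraries were handled together. TMM scaling moved the median of all genes by less than 0.1. The group of 2 libraries limits the precision of every comparison it enters.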

Other observations

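Of 15 listed genes of E2F and RB regulators, which include Mybl2 and Lin54 from outside these 2 families, 14 were tested. In MYC high cells at 200 µM 6 were higher, 2 lower and 6 not passed, where 36.8% of all genes were higher and 37.6% lower. E2f2 stood at 694 and 745 normalized counts in MYC high and 134, 126 and 142 in MYC low libraries at 200 µM (2.42, SE 0.099, adjusted p = 1.87e-22) and at 263, 262 and 291 (MYC high) and 152, 132 and 147 (MYC low) at 10 µM. Mybl2 was higher in both media (1.55 and 1.66). E2f1 did not pass at 200 µM (−0.08) and was lower in MYC high cells at 10 µM (−0.14). Rbl2, the gene of the pocket protein p130, which holds E2F targets down in resting cells, was lower with MYC high at 200 µM, with 171 and 194 in MYC high and 617, 578 and 582 in MYC low libraries (−1.69, SE 0.069, adjusted p = 1.42e-22), and rose in MYC high cells to 576, 549 and 547 at 10 µM (1.60). With the lower methionine 10 of the 14 fell and 3 rose in MYC high cells, and 6 fell and 4 rose in MYC low cells. Of all genes 37.9% fell and 37.9% rose in the former and 29.9% fell and 29.4% rose in the latter, so the shares that rose in MYC low cells and that were higher at 200 µM were near those of all genes.

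Of 10 genes of the ATR checkpoint, which guards stalled forks, 9 fell and 1 rose with the lower methionine in MYC high cells. In MYC low cells 8 fell, 0 rose and 2 did not pass. Of all genes 37.9% fell and 37.9% rose with MYC high, and 29.9% fell and 29.4% rose with MYC low. Chek1 fell by a log2 difference of −1.88 and −1.27, and Atr rose by 0.60 in MYC high cells. The phosphatase gene Cdc25a had a MYC difference of 1.70 at 200 µM and 0.35 at 10 µM. All 4 genes of S phase cyclins and CDK2 were higher in MYC high cells in both media (36.8% of all genes at 200 µM and 35.7% at 10 µM), and with the lower methionine Ccne2 fell (−1.48 and −0.50) while Ccna2 rose (0.55 and 0.54). Of 3 MCM paralogs outside the licensing helicase, Mcm8 (−1.13 and −1.11) and Mcm9 (−0.60 and −0.42) fell in both MYC states. Mcmdc2 rose in MYC high cells (1.38, SE 0.38, adjusted p = 0.00152) and did not pass in MYC low cells (0.10), with an interaction of 1.28 (adjusted p = 0.0309). It is a low gene, at 4.57 to 29.4 normalized counts over the libraries. The MYC high libraries held 4.57 and 19.1 at 200 µM and 28.5, 22.3 and 29.4 at 10 µM. The 2 libraries at 200 µM thus lay far apart, and the size of the rise and of the interaction is uncertain.

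The ratio of Cdt1 to Gmnn normalized counts, chosen after the values were seen, was 6.37 and 5.82 in MYC high libraries at 200 µM and 3.14 to 3.30 in MYC low libraries at 200 µM. It was 1.61 to 1.84 in MYC high and 1.15 to 1.22 in MYC low libraries at 10 µM. The 4 groups did not overlap. The ratio is not corrected for length and is compared only between libraries.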
